A study of Mus musculus with 6 samples.

Results

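The array entries named miR-297, miR-466, miR-467 and miR-669 were followed in mouse embryonic stem cells (mESCs) and embryoid bodies (EBs), which are clumps of mESCs that have started to differentiate. Every mouse entry numbered miR-297, miR-466, miR-467 or miR-669 was a member, which gave 61 of the 1247 mouse miRNAs measured. This rule used names and no signal, but it was set with earlier results of these data known. Of these, 26 belonged to the miR-297/miR-466 subfamily, 12 to the miR-467 subfamily and 23 to the miR-669 subfamily. By arm, 25 entries were named as 5p (cut from the 5′ side of the hairpin), 26 as 3p and 10 had no arm in their name.

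The study compared 3 groups of C57 cells with 2 single-colour arrays each: mESCs kept for 16 h in normoxia on mitomycin C-treated mouse embryonic fibroblast feeders with LIF, EBs kept for 16 h in normoxia, and EBs kept for 16 h in hypoxia. EBs were made in hanging drops with neither LIF nor feeders, so both EB groups differ from the mESCs in growth format, LIF and feeders together. The labels give no oxygen level and do not say whether the 2 arrays of a group came from separate cultures, so p-values reflect the spread between these arrays alone, and that spread may be technical.

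Most of these miRNAs are cut from a block of tandem, nearly repeated hairpins in an intron of Sfmbt2, a Polycomb group gene that is imprinted and expressed from the paternal copy in extraembryonic tissue of the mouse. The block is a rodent feature, is known from mESCs and placenta, and its miRNAs are rich in alternating CA or UG letters. Several of its hairpins give the same mature miRNA, so an array entry can read the product of many hairpins at once. In the RefSeq annotation of GRCm38.p6, 71 of 81 hairpin genes with these 4 numbers lay inside Sfmbt2 on chromosome 2 and 10 lay elsewhere. Setting the sites that the authors' deposited table lists against those hairpins placed 51 entries in Sfmbt2 alone, 7 elsewhere alone and 3 in both. The name Sfmbt2 cluster therefore does not cover all members. The 7 entries from elsewhere carry the family number but come from single hairpins on chromosomes 3, 5, 10, 11 and 13. Of the 61 entries, 18 matched several hairpins, up to 14 for miR-669a-5p, and 11 covered further mature names.

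RefSeq mature sequences were matched for 7 entries. These were 6 of the 7 with hairpins only outside Sfmbt2, and miR-669n, which has a hairpin in Sfmbt2 and another on chromosome 3. No other entry followed here had a matched sequence. All 6 tested entries with hairpins only outside Sfmbt2 had log2 changes above 0 under hypoxia. Of these 6, miR-466i-5p has no sequence here, while miR-466k, which has one, was detected on no array and not tested. The sequences run 5′ to 3′, with the seed (bases 2 to 8, which pair with target transcripts) in capitals.
miR-466i-3p: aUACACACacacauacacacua
miR-466q: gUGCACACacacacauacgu
miR-467f: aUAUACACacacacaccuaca
miR-467g: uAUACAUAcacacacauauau
miR-466j: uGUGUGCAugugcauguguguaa
miR-466k: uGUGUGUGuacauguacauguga
miR-669n: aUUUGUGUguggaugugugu
In GRCm38.p6 miR-466i-3p lies at chr13:17747552-17747573 and miR-466q at chr3:28419988-28420007, both on the plus strand. miR-467f lies at chr11:69635419-69635439 and miR-467g at chr5:34732872-34732892, both on the minus strand. miR-466j lies at chr10:60960802-60960824, miR-466k at chr3:85467396-85467418 and this copy of miR-669n at chr3:115979905-115979924, all on the plus strand. All 7 seeds differ. The first 4 are built on CA, with unbroken alternating CA stretches of 11, 12, 12 and 9 bases in that order. The last 3 are built on UG, with alternating UG stretches of 7, 9 and 8 bases. The motif ACACAC, read on the miRNA strand only, was present in the first 4 and in 11 of 1679 mature miRNAs of the table (0.655%). UGUGUG was present in the last 3 and in 28 of the 1679 (1.67%). Of the entries followed here, only these 7 had a sequence among the 1679. The motif shares therefore leave out the other entries, most of them from Sfmbt2, and may understate how common both motifs are.

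Of the 61 entries, 43 were detected on all 6 arrays, 11 on none and 7 on some. Each mESC array detected 48, the normoxic EB arrays detected 45 and 46, and hypoxic EB arrays 49 and 46. Over all mouse miRNAs the arrays detected 408 to 495, fewest in mESCs. A miRNA was tested where both arrays of at least 1 group detected it, which kept 49 members (20 of miR-297/miR-466, 11 of miR-467, 18 of miR-669) of 484 miRNAs. The 11 never detected were miR-466a-5p, miR-466d-5p, miR-466k, miR-466l-3p, miR-466l-5p, miR-466n-5p, miR-467d-5p, miR-669g, miR-669h-5p, miR-669j and miR-669k-3p. miR-669d-3p, detected on a single mESC array and a single hypoxic EB array, was the other entry not tested. Signals are given as scaled intensities, on which each array's 75th percentile over the 391 miRNAs detected everywhere was set equal, and every change is therefore relative to that set of miRNAs. Levels of different entries come from different probes and are not set against each other.

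The entries together gave 2.08% and 1.99% of the summed mouse miRNA signal in mESCs. That share was 1.43% and 1.61% on normoxic EB arrays, while hypoxic EB arrays gave 2.00% and 1.70%. For miR-467 the shares were 0.345% and 0.335% in mESCs, against 0.225% and 0.222% in normoxic EBs, with hypoxic EBs at 0.241% and 0.201%. For miR-669 they were, in the same order, 0.609% and 0.587%, then 0.394% and 0.415%, then 0.473% and 0.399%. Both shares were lower on every EB array than on either mESC array. For miR-297/miR-466 they were 1.12% and 1.07%, then 0.808% and 0.970%, then 1.29% and 1.10%. That share was lowest in normoxic EBs, and its mESC and hypoxic EB arrays overlapped. It holds miR-466i-5p, whose hairpin lies outside Sfmbt2. The unscaled signal of miR-466i-5p on mESC arrays was 2559 and 2467, out of 7779 and 7547 summed over all 61 entries. Normoxic EB arrays gave 3091 of 8075 and 4000 of 9344. Hypoxic EB arrays gave 4473 of 9638 and 3554 of 7683. The miR-297/miR-466 share and the share of all entries therefore lean heavily on this entry. Whether the overlap holds without miR-466i-5p was not tested.

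**Figure D1:**
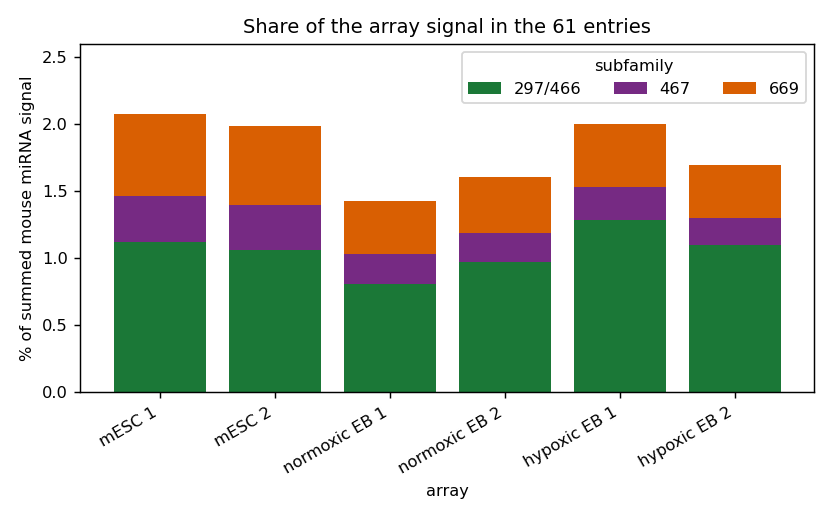
Share of each array's summed mouse miRNA signal (%, unscaled intensities) in the 61 entries, stacked by subfamily, 1 bar per array. The whole bar falls from about 2.08% and 1.99% in mESCs to 1.43% and 1.61% in normoxic EBs, and the miR-467 and miR-669 segments stay below their mESC size on all 4 EB arrays. The miR-297/miR-466 segment, and with it the whole bar, leans heavily on the bright entry miR-466i-5p, whose hairpin lies outside Sfmbt2.

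The first comparison asked how the miRNAs differ between EBs and mESCs at normal oxygen. The entries as a whole were lower in EBs. Of the 49 tested, 44 fell and 0 rose at a limma adjusted p under 0.05 (44 and 0 also at an unadjusted p under 0.05). Over all 484 tested miRNAs, 25.2% were lower and 26% higher by the same rule, against 89.8% of the members lower. The median log2 change of the members was -0.71, beside 0.046 over all tested miRNAs. All subfamilies took part, with 17 of 20 entries of miR-297/miR-466, 10 of 11 of miR-467 and 17 of 18 of miR-669 lower, and medians of -0.69, -0.68 and -0.76. By hairpin place, in classes made after the values were seen, 36 of 40 entries of Sfmbt2 alone were lower (median -0.71). So were 5 of 6 from elsewhere alone (median -0.96) and 3 of 3 from both (median -0.60). The fall was therefore not limited to entries from Sfmbt2. The members that did not pass were miR-297b-5p (named after its values were seen), miR-466i-5p, miR-466p-5p, miR-467b-3p and miR-669i. Among the 43 entries detected everywhere, 42 fell when only such miRNAs were tested, where 31.7% of those miRNAs were lower and 26.1% higher. Both EB arrays lay below both mESC arrays for 46 of the 49 entries, against 36.6% of all tested miRNAs.

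The direction holds relative to other miRNAs and not on unscaled signals. Without scaling the median change of the members was -0.0069 while that of all tested miRNAs was 0.74, and 3 members fell where 2.27% of all tested miRNAs were lower and 67.4% higher. With the authors' deposited ratio 2 members fell, and of all tested miRNAs 2.27% were lower and 62.8% higher. The distance between both medians was -0.75 and stayed between -0.80 and -0.60 over all 17 settings. Without mESC array 1, 29 members fell, where 14.5% of all tested miRNAs were lower and 15.5% higher. The labels do not say whether feeders were removed before mESC RNA was taken, and in bulk RNA fewer cells of a type and less RNA per cell cannot be told apart. Of 6 fibroblast miRNAs 4 were detected, with a summed scaled signal of 393 to 415 in mESCs, 187 to 207 in normoxic EBs and 151 to 170.0 in hypoxic EBs, while miR-199a-5p and miR-143-3p were detected on no array. The part of feeder RNA in the fall of these entries was not tested. The mESC arrays also lay in another row of the slide than the EB arrays, so slide row and kind of cell cannot be told apart.

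**Figure D2:**
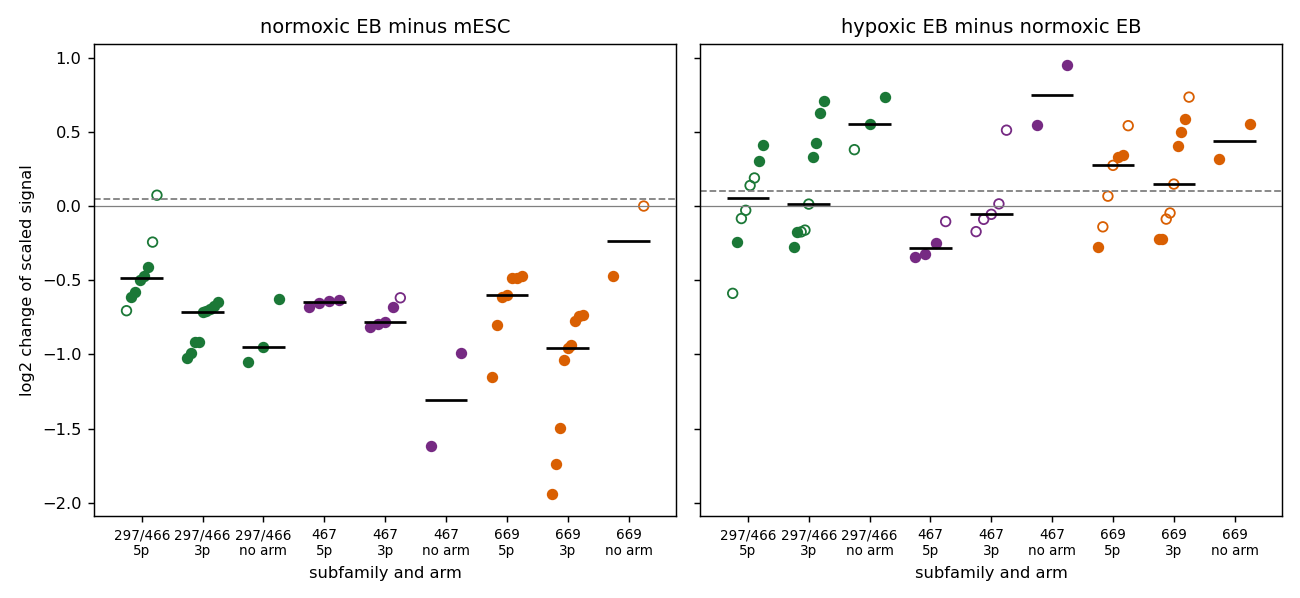
Log2 change of scaled signal for each of the 49 tested entries, by subfamily and arm, for normoxic EBs against mESCs (left) and hypoxic against normoxic EBs (right); filled points passed a limma adjusted p of 0.05, open points did not, black bars are medians and the dashed line is the median of all 484 tested miRNAs (0.046 and 0.10). On the left nearly all points lie below 0, and on the right they spread to both sides.

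Among entries detected on all arrays, the 2 largest falls were of miR-669 3p entries. miR-669e-3p read 18.4 and 16.9 in mESCs, against 4.58 and 4.61 in normoxic EBs, with hypoxic EBs at 10.2 and 5.73. It was 3.84-fold lower in normoxic EBs (95% confidence interval 2.27 to 6.51, limma adjusted p = 0.00666). No EB array reached the mESC level, and the 2 hypoxic arrays lay apart from each other. miR-669m-3p read 17.4 and 16.1 in mESCs, against 5.63 and 6.28 in normoxic EBs, with hypoxic EBs at 6.91 and 4.53. It was 2.81-fold lower in normoxic EBs (1.88 to 4.22, limma adjusted p = 0.00666), and the EB groups overlapped. miR-669b-3p read 27.2 and 25.6, then 13.5 and 12.2, then 13.2 and 11.8, and was 2.05-fold lower (1.74 to 2.42, limma adjusted p = 0.00175). For miR-669l-3p both mESC arrays gave a signal, 13.6 and 6.89, and neither normoxic EB array did (limma adjusted p = 0.0166). It was seen on a single hypoxic EB array, at 3.57. miR-669k-5p, the 5p entry that fell furthest, read 15.2 and 20.1 in mESCs and 7.59 and 8.14 in normoxic EBs, a 2.23-fold fall (1.55 to 3.20, limma adjusted p = 0.0104). miR-467g, seen at 11.2 and 7.10 in mESCs and on 1 of 2 normoxic EB arrays, fell as well (limma adjusted p = 0.0104). Some of these calls were lost when 1 array was left out, which also lowers the residual degrees of freedom. Without mESC array 1 the log2 change of miR-669e-3p was -1.86 (adjusted p = 0.063), and without normoxic EB array 2 it was -1.95 (0.0517). That of miR-669m-3p was -1.41 without mESC array 1 (adjusted p = 0.0702). Without normoxic EB array 1 or 2 it was -1.10 or -1.20 for miR-669k-5p (adjusted p = 0.064 or 0.0605) and -1.73 or -1.74 for miR-669l-3p (0.0873 or 0.0905).

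Entries far above the lowest detected signals fell as well. miR-669f-3p, which reads miR-669a-3p and miR-669o-3p too and matches 13 hairpins in Sfmbt2, read 1241 and 1191 in mESCs, against 761 and 702 in normoxic EBs, with hypoxic EBs at 627 and 626. It was 1.66-fold lower in normoxic EBs (1.49 to 1.86, limma adjusted p = 0.00143). miR-467b-5p read 345 and 344 in mESCs, then 225 and 219.8, then 176 and 175. The fall was 1.55-fold (1.43 to 1.67, limma adjusted p = 0.00102), and the 3 groups did not overlap. miR-466b-3p, which covers 4 further names and matches 13 hairpins, read 509 and 479, then 331 and 281, then 276 and 264. It was 1.62-fold lower (1.36 to 1.94, limma adjusted p = 0.00588).

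Other falls were of entries whose signal was higher again under hypoxia. miR-466f-3p read 187 and 169.6 in mESCs and 80.7 and 95.2 in normoxic EBs, a 2.03-fold fall (1.67 to 2.48, limma adjusted p = 0.00276). miR-466h-3p read 329 and 296 against 141 and 174, a 1.99-fold fall (1.58 to 2.51, limma adjusted p = 0.00482). miR-466q read 136 and 126 against 56.0 and 70.5, a 2.08-fold fall (1.63 to 2.65, limma adjusted p = 0.00475). miR-467f read 255 and 241 against 115 and 135, a 1.99-fold fall (1.65 to 2.39, limma adjusted p = 0.00241). On each of these 4, normoxic EB array 1 was the lowest of all 6 arrays. Without mESC array 1 the adjusted p was 0.0522 for miR-466h-3p and 0.0519 for miR-466q. miR-466i-5p did not pass: it read 3515 and 3316 in mESCs and 2618 and 3179 in normoxic EBs, a log2 change of -0.24 (limma adjusted p = 0.123).

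**Figure D3:**
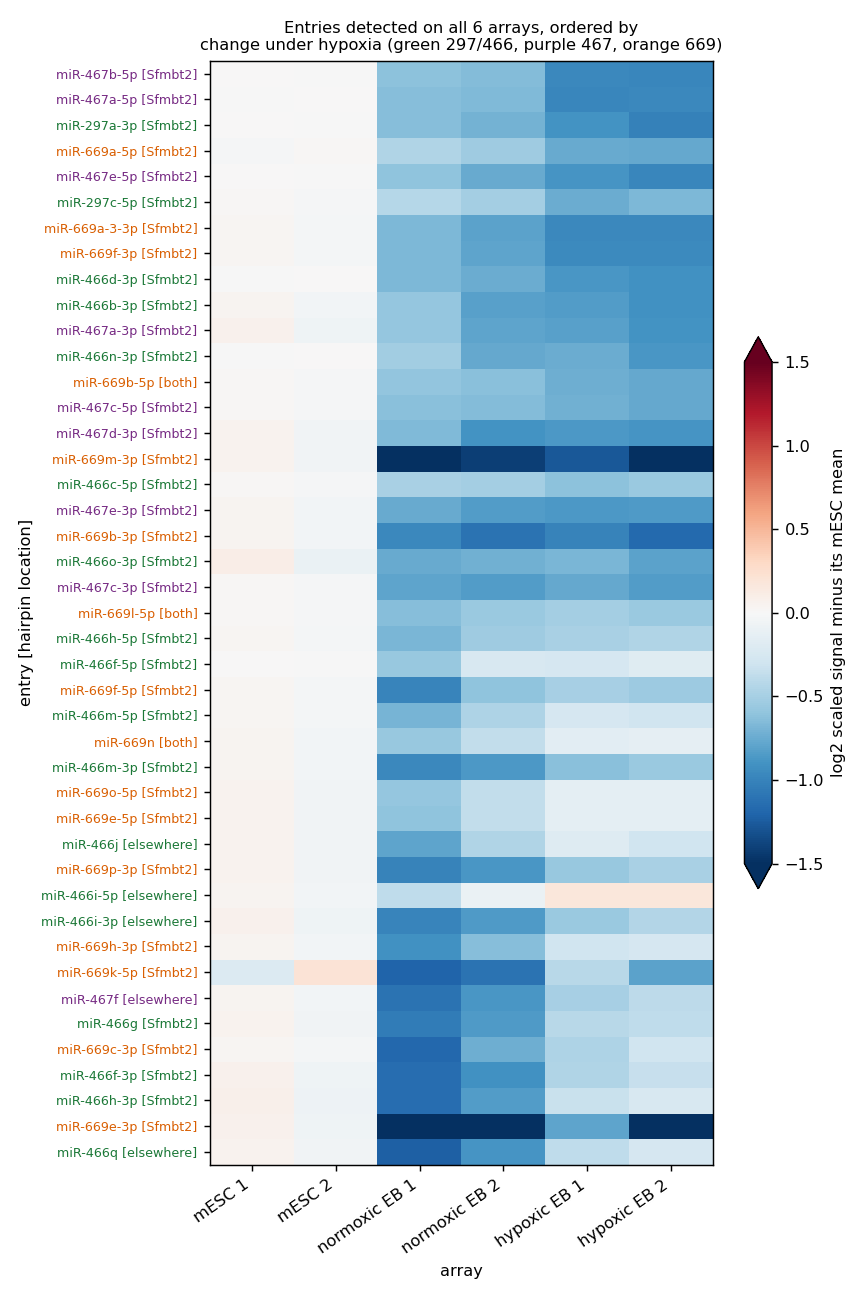
Log2 scaled signal of the 43 entries detected on all arrays, each minus its own mESC mean, 1 column per array, with entries ordered by their change under hypoxia and hairpin location in brackets; the colour scale ends at 1.5 either way and larger differences take the end colour. Normoxic EB columns are blue for nearly all entries, while the hypoxic EB columns are darker at the top (miR-467b-5p, miR-467a-5p) and paler at the bottom (miR-466q, miR-466h-3p).

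The arms of a hairpin are cut from the same precursor, and usually one of them is kept. For 10 hairpin names both arms were detected on all arrays. In normoxic EBs against mESCs the 5p change lay above the 3p change for 9 of the 10, with a median difference of 0.36 on the log2 scale (-0.065 to 1.46). miR-669e gave the widest gap: the 5p entry changed by -0.49 and the 3p entry by -1.94. miR-669f was the exception, with -0.80 for the 5p entry and -0.73 for the 3p entry. Over all entries, 22 of 23 3p entries fell with a median of -0.80, 16 of 19 5p entries with a median of -0.60, and 6 of 7 entries with no arm in the name with a median of -0.95. A difference between both arms on an array does not depend on the scaling factor. The mean log2 signal of the 17 5p entries minus that of the 21 3p entries was 0.56 and 0.64 in mESCs, against 0.87 and 0.95 in normoxic EBs, with hypoxic EBs at 0.82 and 0.86. All 4 EB values lay above both mESC values. Under hypoxia the order turned: the 5p change lay below the 3p change for 9 of the 10 hairpin names, with a median difference of -0.13 (-0.57 to 0.50). miR-669f was again the exception, with a 5p change of 0.27 and a 3p change of -0.22. Both comparisons share the normoxic EB arrays, and some arms read several hairpins, so the 10 names are not independent. For miR-669f, miR-669b and miR-466m the arms do not read the same set of hairpins. Their 5p entries match 1, 6 and 3 hairpins, and their 3p entries 13, 1 and 1. For these names, the exception miR-669f among them, the difference is not one between arms of a single precursor.

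**Figure D4:**
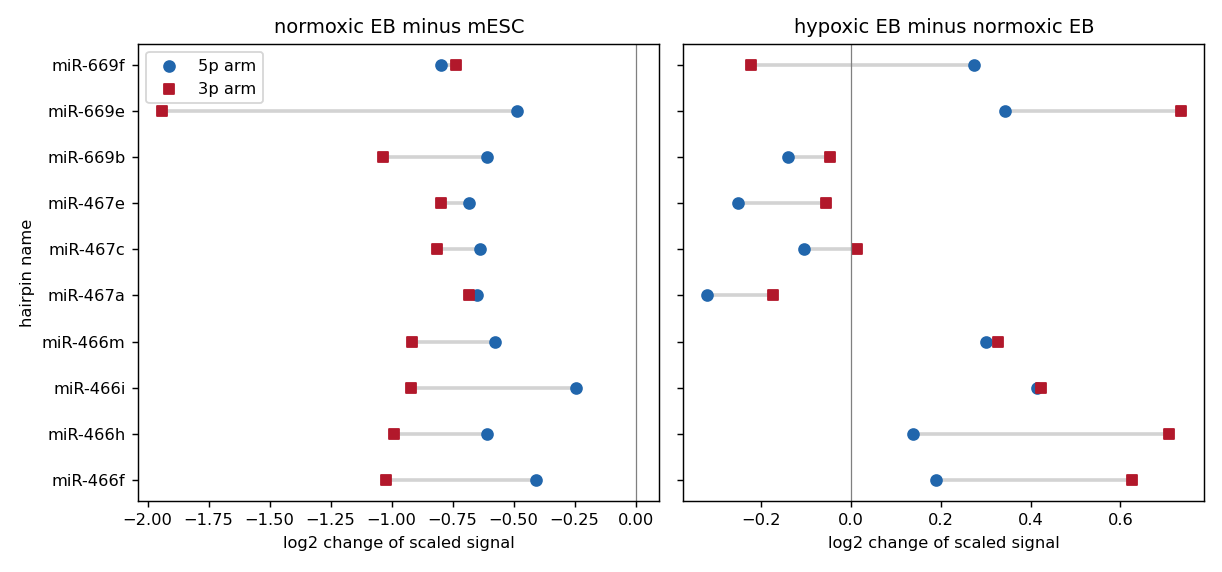
Log2 change of the 5p arm (circle) and the 3p arm (square) for the 10 hairpin names with both arms detected on all arrays, for normoxic EBs against mESCs (left) and hypoxic against normoxic EBs (right). On the left the circle lies to the right of the square for all names but miR-669f, and on the right it lies to the left of it for all names but miR-669f.

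The second comparison asked what hypoxia did to EBs. The entries did not move as a block: 17 of 49 rose, 9 fell and 23 did not pass. Of all tested miRNAs 32.9% rose and 25.2% fell, so the members' 34.7% and 18.4% were near the background. Their median log2 change was 0.14, beside 0.10 over all tested miRNAs. The hypoxic arrays lay below both normoxic EB arrays for 16 entries (37% of all tested miRNAs) and above both for 22 (47.7%). The split between risers and fallers depends on the scaling. Scaling to the hur control features gave 22 rises and no fall, also none at an unadjusted p under 0.05, where 26 rose. On that scale 47.7% of all tested miRNAs rose and 3.1% fell. Without scaling 1 rose and 5 fell, where 4.96% and 23.8% of all tested miRNAs did. With the authors' deposited ratio limma gave 2 rises and no fall, and at an unadjusted p under 0.05 it gave 4 rises and 10 falls. By that ratio 3.31% of all tested miRNAs rose and 6.2% fell. Leaving out 1 array also lowers the residual degrees of freedom. Without hypoxic EB array 2, 2 members rose and 5 fell (21.3% and 15.5% of all tested miRNAs), with a member median of 0.22. Without hypoxic EB array 1, 8 rose and 4 fell (31% and 13.2%), with a median of 0. Without normoxic EB array 1, 8 rose and 3 fell (18.4% and 15.1%), with a median of 0.031. Without mESC array 1, 8 rose and 7 fell (24.6% and 22.5%), and without mESC array 2, 11 rose and 5 fell (25.8% and 19.8%), both with a median of 0.13. With the replicate number as a block 12 rose and 8 fell (31.4% and 22.9%).

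Most 5p entries of the miR-467 subfamily fell. miR-467b-5p went from 225 and 219.8 in normoxic EBs to 176 and 175 in hypoxic EBs, a 1.27-fold fall (1.17 to 1.37, limma adjusted p = 0.00768). miR-467a-5p read 138 and 139.9 in mESCs, against 89.3 and 87.7 in normoxic EBs, with hypoxic EBs at 70.7 and 71.0. Its fall under hypoxia was 1.25-fold (1.16 to 1.35, limma adjusted p = 0.0088). These 2 calls were lost only with hur scaling and with the authors' ratio among 16 alternatives. miR-467e-5p, at 135 and 121 against 111 and 104, was 1.19-fold lower (1.04 to 1.36, limma adjusted p = 0.0412), and 12 of the 16 alternatives ended that call, with an adjusted p of 0.0706 to 0.125 without either mESC array, either hypoxic EB array or normoxic EB array 1. Of the 4 tested 5p entries of this subfamily 3 fell, and of its 5 tested 3p entries 0 passed in either direction (0 also at an unadjusted p under 0.05). The mean log2 signal of the miR-467 entries minus that of the miR-297/miR-466 entries, which a scaling factor does not move, was 0.56 and 0.59 in mESCs, against 0.63 and 0.46 in normoxic EBs, with hypoxic EBs at 0.27 and 0.23. The hypoxic values were the lowest, and those of the other groups overlapped. This difference takes in miR-467 entries of every arm and the miR-297/miR-466 entries, of which 8 of 20 rose and 3 fell. It therefore does not show by itself that the miR-467 5p entries fell. With hur scaling those 5p entries had a median log2 change of -0.050, and 0 passed.

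Among the other falls, 5 were of miR-669 and miR-297 entries. miR-669a-5p, matching 14 hairpins, read 102 and 105 in mESCs, against 75.9 and 71.7 in normoxic EBs, with hypoxic EBs at 61.07 and 61.001, a 1.21-fold fall under hypoxia (1.10 to 1.33, limma adjusted p = 0.0155). miR-297a-3p, matching 4, read 55.2 and 52.4 against 46.2 and 42.6, a 1.21-fold fall (1.08 to 1.36, limma adjusted p = 0.0221). miR-669f-3p fell 1.17-fold (1.05 to 1.30, limma adjusted p = 0.0339). With hur scaling its log2 change was 0.013, as was that of miR-669a-3-3p, which fell 1.17-fold (1.04 to 1.31, limma adjusted p = 0.0373) from 67.8 and 62.2 to 55.8 and 55.5. miR-297c-5p fell 1.18-fold (1.07 to 1.31, limma adjusted p = 0.0235), from 93.8 and 88.6 to 75.1 and 79.0. The groups did not overlap for any of these 5 entries. The calls of miR-669f-3p and miR-669a-3-3p were each lost without mESC array 2, normoxic EB array 1, hypoxic EB array 1 or hypoxic EB array 2, at adjusted p of 0.0521 to 0.0994. That of miR-297a-3p was lost without mESC array 1 (0.0722), mESC array 2 (0.0502) or normoxic EB array 1 (0.0809), and that of miR-297c-5p without normoxic EB array 1 (0.0635) or hypoxic EB array 1 (0.0601).

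Rises were seen among miR-466, miR-467 and miR-669 entries. miR-466q, one of the CA-built sequences printed, went from 56.0 and 70.5 in normoxic EBs to 100.2 and 109 in hypoxic EBs, a 1.66-fold rise (1.31 to 2.12, limma adjusted p = 0.0145). miR-466h-3p went from 141 and 174 to 248 and 265, a 1.63-fold rise (1.29 to 2.06, limma adjusted p = 0.0143). miR-466f-3p went from 80.7 and 95.2 to 131 and 139.98, a 1.54-fold rise (1.27 to 1.88, limma adjusted p = 0.0133). All hypoxic arrays lay above both normoxic EB arrays here, and below both mESC arrays. miR-466g went from 58.6 and 67.4 to 91.4 and 93.1 (1.47-fold, 1.25 to 1.72, limma adjusted p = 0.011). miR-467f went from 115 and 135 to 176 and 188 (1.46-fold, 1.22 to 1.75, limma adjusted p = 0.0148). miR-466i-3p went from 121 and 134 to 164 and 178 (1.34-fold, 1.14 to 1.58, limma adjusted p = 0.0184). For these too the hypoxic arrays lay between the normoxic EB and the mESC arrays. miR-669h-3p rose 1.41-fold (1.17 to 1.71, limma adjusted p = 0.0181), from 29.97 and 35.9 to 45.7 and 47.0. miR-669c-3p rose 1.498-fold (1.10 to 2.04, limma adjusted p = 0.0393), from 28.6 and 38.9 to 47.2 and 52.9. miR-466i-5p went from 2618 and 3179 to 3849 and 3834, a 1.33-fold rise (1.09 to 1.62, limma adjusted p = 0.0308), and was, with miR-669i, 1 of 2 members whose hypoxic arrays lay above both mESC arrays.

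Leaving out hypoxic EB array 2 ended the calls of all 8 largest risers detected on both arrays of both EB groups, miR-466q, miR-466h-3p, miR-466f-3p, miR-669c-3p, miR-466g, miR-467f, miR-669h-3p and miR-466i-3p, at adjusted p of 0.0615 to 0.187, with log2 changes of 0.37 to 0.67. Leaving out hypoxic EB array 1 ended those of miR-466h-3p (0.0527), miR-466q (0.0519), miR-669h-3p (0.067) and miR-669c-3p (0.101). Leaving out normoxic EB array 1 ended those of miR-466i-3p (0.0731) and miR-669c-3p (0.0691). Leaving out mESC array 1, which enters only through the shared spread, ended those of miR-467f (0.0505), miR-669h-3p (0.0674) and miR-669c-3p (0.107), and leaving out mESC array 2 ended that of miR-669c-3p (0.0854).

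Some entries were seen on both arrays of one EB group and on neither of the other, so that no fold is given. miR-669i gave 4.08 and 4.45 on the hypoxic EB arrays and was detected on no other (limma adjusted p = 0.00741). Its mESC and normoxic EB arrays all enter the fit at the floor, so this p-value holds no spread between arrays of those groups. The call, counted among the 17 rises, was lost with quantile normalization, with a floor 4 times as high and with no filter. miR-466p-5p gave 4.75 and 4.02 on the normoxic EB arrays and 5.94 on mESC array 2, and hypoxic EBs showed none (limma adjusted p = 0.207). miR-467b-3p gave 3.16 and 6.30 in mESCs and 5.90 and 2.23 in hypoxic EBs, and normoxic EBs showed none (limma adjusted p = 0.388). All lie near the floor of 2.91 scaled units used for the fit, the highest among the lowest detected signals of the 6 arrays.

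The changes under hypoxia were also read by the place and number of an entry's hairpins, in classes made after the values were seen and therefore without a test. All 6 tested entries with hairpins only outside Sfmbt2 had log2 changes above 0 (5 of 6 with quantile normalization, the other at 0). Their median was 0.48, and 5 of them rose. They were miR-466q, miR-467f, miR-466i-3p, miR-466i-5p and miR-467g, while miR-466j, from 26.9 and 34.0 to 40.9 and 37.8, did not pass (limma adjusted p = 0.0641). miR-467g gave a signal on normoxic EB array 2 alone among those of its group, at 1.88, and read 6.601 and 4.76 in hypoxic EBs (limma adjusted p = 0.0415). Since 1.88 lies below the floor of 2.91, both its normoxic EB arrays enter the fit at the floor. Place and sequence cannot be told apart in this class: miR-466q, miR-467f, miR-466i-3p and miR-467g are built on CA, and miR-466i-5p and miR-466i-3p are arms of 1 hairpin. Entries of Sfmbt2 alone such as miR-466h-3p, miR-466f-3p and miR-466g also rose (log2 changes of 0.71, 0.63 and 0.55). Whether probes for near repeats read each other's miRNAs was not tested. Of the 3 tested entries with hairpins both in Sfmbt2 and elsewhere, 1 rose and 0 fell, with a median of 0.066. These were miR-669n (log2 change 0.32), miR-669l-5p (0.066) and miR-669b-5p (-0.14). Of the 40 tested entries with hairpins in Sfmbt2 alone, 11 rose and 9 fell, with a median of -0.0079. Those from a single Sfmbt2 hairpin split into 8 rises and 5 falls of 27. Both splits were near the background of 32.9% rising and 25.2% falling. Those from 2 or 3 hairpins gave 3 rises and 0 falls of 6. Those from 4 to 14 hairpins gave 0 rises and 4 falls of 7, with all 7 log2 changes below 0, although 3 of the 7 were above 0 with hur scaling. The largest, -0.59, was of miR-466p-5p, detected on neither hypoxic EB array. The single-hairpin entries miR-669a-3-3p and miR-467b-5p changed by -0.22 and -0.34, beside -0.22 for miR-669f-3p and -0.32 for miR-467a-5p in this class. Sequences were not matched for these entries, so hairpin number and sequence cannot be told apart. Without hypoxic EB array 2, all 6 outside entries kept a log2 change above 0 but 0 of them passed (3 at an unadjusted p under 0.05), and without hypoxic EB array 1, 2 passed. The mean log2 signal of the 5 outside entries detected everywhere minus that of the 35 Sfmbt2 entries, which a scaling factor does not move, was 1.70 and 1.65 in mESCs, against 1.58 and 1.81 in normoxic EBs, with hypoxic EBs at 2.05 and 2.15. Both hypoxic values lay above all others, and the mESC and normoxic EB values overlapped.

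**Figure D5:**
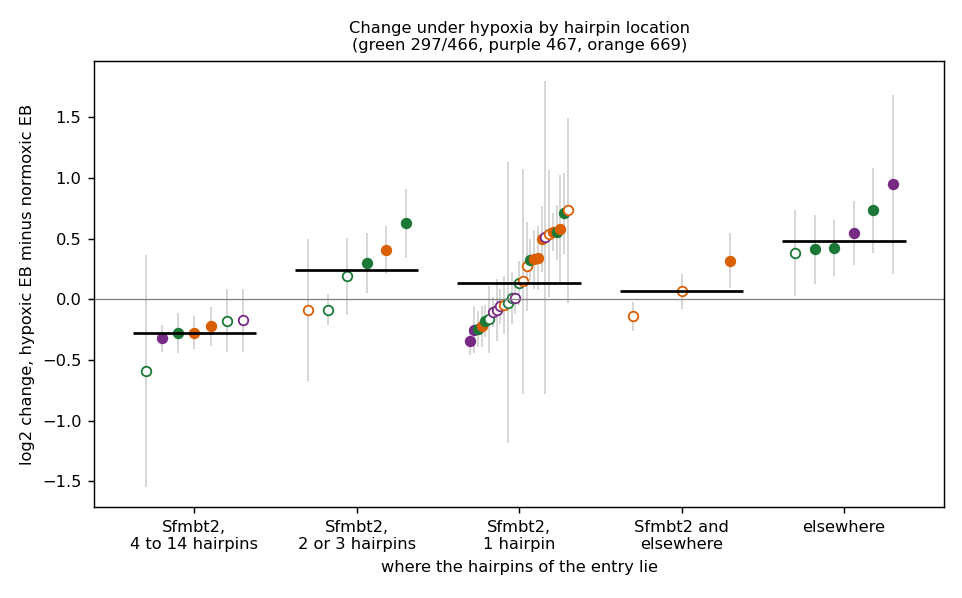
Log2 change under hypoxia of each tested entry with its 95% confidence interval (limma), by where its hairpins lie and how many it matches; filled points passed an adjusted p of 0.05 and black bars are medians. The entries with hairpins only outside Sfmbt2 all lie above 0 (median 0.48), and those that match 4 to 14 Sfmbt2 hairpins all lie below 0 (median -0.27). Those of a single Sfmbt2 hairpin span both sides.

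The risers also differed between arrays of the same group. Of the 15 risers detected on both normoxic EB arrays, 15 read higher on array 2 than on array 1, with a median log2 difference of -0.24 (array 1 minus array 2), and all 16 detected on both mESC arrays read higher on array 1, with a median of 0.097. On the hypoxic EB arrays 12 of 17 read higher on array 2. All 9 fallers read higher on normoxic EB array 1, with a median of 0.083. Among the other tested miRNAs, 83 of 129 risers read higher on normoxic EB array 2 and 98 of 113 fallers higher on array 1. Of those other risers, 130 of 142 read higher on hypoxic EB array 2, and 33 of 119 read higher on mESC array 1. The part of these differences between arrays in the rises and falls was not tested. Over the 43 entries detected everywhere, the median distance between the arrays of a group was 0.082 for mESCs, 0.15 for normoxic EBs and 0.062 for hypoxic EBs on the log2 scale.

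Hypoxic EBs were also set against mESCs, a comparison that shares its arrays with both others. Of the 49 entries 34 were lower and 1, miR-669i, was higher, where 33.7% and 41.3% of all tested miRNAs were. miR-669i was detected on no mESC array, so its mESC values are the floor. The median change was -0.61, beside 0.11 over all tested miRNAs. Both hypoxic EB arrays lay below both mESC arrays for 44 entries (39.5% of all tested miRNAs) and above both for 2 (48.6%). miR-669m-3p was 2.99-fold lower (1.99 to 4.49, limma adjusted p = 0.00337) and miR-669b-3p 2.12-fold lower (1.79 to 2.50, limma adjusted p = 0.000952). miR-467b-5p was 1.97-fold lower (1.82 to 2.12, limma adjusted p = 0.000265) and miR-467a-5p 1.96-fold lower (1.81 to 2.12, limma adjusted p = 0.000265). These last 2, miR-669f-3p and miR-669a-3-3p passed under all 16 alternatives, while miR-466h-3p (limma adjusted p = 0.0991) and miR-466q (0.0835) did not pass. miR-669e-3p was 2.31-fold lower (1.36 to 3.92, limma adjusted p = 0.0171), with an adjusted p of 0.053 to 0.111 on leaving out either mESC array or either normoxic EB array. Its call was lost under 8 of the 16 alternatives, the others being no scaling (adjusted p = 0.172), hur scaling (0.0831), the authors' ratio (0.206) and no filter (0.144).

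A pair of other clusters known from mESCs was counted for comparison. All 7 tested entries of miR-302/miR-367 fell in normoxic EBs, with a median of -1.59, and 6 of 7 fell under hypoxia, with a median of -0.40. Of the 14 entries of miR-290 to miR-295, 4 fell in normoxic EBs with a median of -0.22, and under hypoxia 7 fell and 1 rose with a median of -0.20. Over all tested miRNAs 25.2% fell and 26% rose in normoxic EBs, and 25.2% fell and 32.9% rose under hypoxia. The 4 falls of miR-290 to miR-295 (28.6%) were near that background. On the scale of the mean log2 signal above the other tested miRNAs, the members stood at 0.92 and 0.85 in mESCs, at -0.028 and -0.0060 in normoxic EBs, and under hypoxia at 0.087 and -0.043. The miR-302/miR-367 entries stood at 3.04 and 2.98, then 1.57 and 1.40, then 1.03 and 0.85. The miR-302/miR-367 values were lower in hypoxic than in normoxic EBs, while those of the members overlapped between both EB groups. Differences between clusters were not tested.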

How the data were processed

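Agilent miRNA arrays with a single dye (Cy3) measured total RNA of 6 samples; the labels name a cRNA labelling kit. Scanner files deposited by the authors hold, per the file headers, the linear total gene signal intensity of each miRNA with a flag for detection, over 1268 features including 21 controls; undetected miRNAs are deposited at 0.1. The authors also deposited a table whose raw intensity columns equal the scanner files (relative tolerance 0.001) and whose normalized values are a ratio of the signal to a control value per miRNA; 6 of its columns, for 2 arrays not in the list of samples, were not used. How the detection flag was set is not stated, and file names place all arrays on 1 slide.

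Signals were scaled to the 75th percentile over 391 miRNAs detected on all arrays, times the mean of these percentiles, floored at 2.91 and put on the log2 scale. All 6 arrays were fitted as 3 group means with limma 3.58.1 in R 4.3.3 (residual df 3, prior df 1.43; all adjusted p are from this limma fit, Benjamini-Hochberg over 484 miRNAs, threshold 0.05), and the fit was tested on simulated data. Tables and figures used Python 3.11.15 and matplotlib 3.10.9. Entries detected on 1 array of a group enter at the floor on the other. Where neither array of a group detected an entry, both enter at the floor and that group shows no spread. Members, lists and tests were chosen with earlier results of these data known. Named entries were, per comparison, the 8 largest falls and rises past the threshold that were detected on both arrays of both groups, entries seen on both arrays of a group but on none of another, and the 3 brightest of each subfamily and arm; miR-297b-5p, miR-669e-5p and miR-669f-5p were named after their values were seen. Muscle miRNAs, the remaining marker list, were near 0 (miR-1a-3p and miR-133a-3p on no array). The number of arrays limits the precision.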

Additional observations from a re-analysis of the deposited data

How the results depend on the processing

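Alternatives were other scalings, floors and filters, the replicate number as a block, and leaving out each array. Of the members lower in normoxic EBs (44), 3 were called without scaling, 2 with the authors' ratio and 24 with no filter, and 29 to 42 on leaving out 1 array (29 without mESC array 1); 0 to 1 were higher. Under hypoxia the 9 falls became 5 without scaling, 0 with hur scaling, 0 with the authors' ratio and 2 with no filter, and 3 to 10 on leaving out 1 array. The 17 rises became 1 without scaling, 6 with quantile normalization, 2 with the authors' ratio, 9 with a floor 4 times as high and 0 with no filter (14 at an unadjusted p under 0.05), and 2 to 20 on leaving out 1 array. For hypoxic EBs against mESCs the 34 falls became 6 without scaling and 4 with the authors' ratio, and 26 to 36 on leaving out 1 array; the 1 rise became 2 without scaling, with hur scaling and with the authors' ratio, 0 with quantile normalization, with the higher floor and over miRNAs detected on all arrays, and 1 to 2 on leaving out 1 array. The median under hypoxia reversed to -0.093 without scaling and with the authors' ratio, and miR-669a-3-3p and miR-669f-3p to 0.013 with hur scaling. No filter raises the number of miRNAs tested. Other causes were not tested. Shares over all tested miRNAs are not given in this section, so no loss of calls here is read as particular to the members. Same-numbered arrays did not deviate together (correlations of 0.015, -0.021 and 0.063). With 2 arrays a group this cannot settle whether the numbers pair arrays. With the replicate block 44 fell and 0 rose, 8 fell and 12 rose, and 33 fell and 1 rose in the 3 comparisons. Of the named entries' values 454 kept direction and side of the threshold, 141 lost and 5 gained a call, and 2 reversed. Dim entries near the floor limit what can be said of them.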

Other observations

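Other tested miRNAs that hold the same short repeats were read off after the values were seen, without a test of the group. miR-574-3p, which holds ACACAC, read 107 and 99.99 in mESCs, against 37.0 and 50.4 in normoxic EBs, with hypoxic EBs at 73.3 and 79.7, so that it fell (log2 change -1.26, limma adjusted p = 0.00508) and rose again (0.82, limma adjusted p = 0.0174) as miR-466q did. miR-362-3p, with the same letters, had log2 changes of -0.60 and -0.80 that did not pass (limma adjusted p = 0.139 and 0.0648), and miR-3100-3p, not detected in mESCs or on normoxic EB array 1, read 3.50 on normoxic EB array 2 and 8.35 and 6.79 in hypoxic EBs, a rise under hypoxia (1.24, limma adjusted p = 0.00741). Of the miRNAs with UGUGUG, miR-574-5p (0.40, limma adjusted p = 0.0355), miR-1187 (0.36, 0.041) and miR-3082-5p (0.42, 0.0294) rose under hypoxia from 1245 and 1494, 800.02 and 960.4, and 786 and 942. miR-6348 fell in normoxic EBs (-1.31, limma adjusted p = 0.000348) and rose under hypoxia (0.38, limma adjusted p = 0.00768). miR-291a-3p, miR-293-5p, miR-294-3p and miR-672-5p hold UGUGUG too and fell under hypoxia, by 0.34, 0.52, 0.24 and 0.22 on the log2 scale (limma adjusted p = 0.0157, 0.00872, 0.0497 and 0.0376). miR-493-3p, with the same letters, was detected on the hypoxic EB arrays alone, at 9.38 and 7.22 (limma adjusted p = 0.00694). miR-32-3p fell in normoxic EBs (-0.48, limma adjusted p = 0.0194) and did not pass under hypoxia (0.32, limma adjusted p = 0.0502). let-7b-5p fell in normoxic EBs (-0.93, limma adjusted p = 0.00611) and did not pass under hypoxia (0.25, limma adjusted p = 0.162).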
